A study of Mus musculus with 36 samples.

Results

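Shh, Noto, Foxa1, Foxa2, Foxj1, Ptch1, Gli1 and Hhip are genes of the notochord, of its forerunner the node, and of the Hedgehog signal that these tissues send. They were chosen by name, every probe of the deposited table with such a symbol being taken, which gave 8 genes of 30869 gene symbols and 13 probes of 45281. RNA had been taken from regions dissected out of wildtype MF1 mouse embryos while the body axis was growing, amplified and hybridised to MouseWG-6 v2.0 BeadChips of Illumina, on which the brightness of beads carrying a probe measures a transcript. The question here was how far genes of the node at E8.5 are still expressed in the tail bud, in its chordoneural hinge (CNH), where the posterior end of the notochord meets the neural tube.

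The 36 arrays covered 16 regions, and each array held RNA of pieces pooled from several embryos. At the headfold stage, E7.5, the anterior (A) region had 3 arrays of 9 to 25 pieces, the posterior (P) region 2 of 9 to 13 and the proximal posterior (PP) region 2 of 12 to 15. At E8.5, with 2 to 5 somites, the rostral node (RN) had 2 arrays of 45 pieces and the node-streak border (NSB) 3 of 45 to 57. At that stage there were also the caudal lateral epiblast (CLE, 3 arrays of 12 to 43 pieces) and the rostral (St1) and caudal (St5) parts of the streak, with 2 arrays of 45 pieces each. The CNH was taken at E9.5 (22 to 25 somites, 2 arrays of 6 to 10 pieces), E10.5 (32 to 35 somites, 2 of 17), E11.5 (40 to 45 somites, 3 of 29 to 52), E12.5 (50 to 55 somites, 2 of 15 to 33) and E13.5 (60 to 63 somites, 2 of 48 to 74). Tissue posterior to the CNH (P-CNH) was taken at E9.5 (2 arrays of 6 to 11 pieces), E10.5 (2 of 17) and E11.5 (2 of 33 to 65). The pieces kept all their layers, save those of CLE, from which mesoderm and endoderm had been stripped.

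Shh is a secreted ligand that the node, the notochord and later the floor plate of the neural tube release. It binds the receptor Ptch1, which then no longer holds back Smo, and Gli transcription factors turn on targets that include Gli1, Ptch1 and Hhip. The forkhead factors Foxa1 and Foxa2 act in node, notochord, floor plate and gut endoderm, the homeodomain factor Noto acts in the node and the posterior notochord, and Foxj1 drives the genes of motile cilia, such as those of the node.

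Levels are log2 intensities after background correction and quantile normalisation with limma, and a probe counted as detected on an array at a detection p-value under 0.01. A difference between regions counted as called where the adjusted p did not exceed 0.05 (limma, Benjamini-Hochberg over 21712 tested probes for each comparison) and the fold change reached 1.5. Between 10814 and 16256 probes were detected per array, with a median of 15054, and the number of arrays limits the precision. The arrays fell into 3 batches of 12, as the labels name them. RN, St1, St5, the E10.5 CNH and the E10.5 P-CNH were in batch 1, where 15481 to 16256 probes were detected, and so were NSB replicates 1 and 2. All other arrays were in batch 2, with 11062 to 15388 detected probes, or batch 3, with 10814 to 16241, and NSB replicate 3 alone tied batch 1 to them. Batch was a term of the model beside region, so that a fitted difference between batches departs from the difference of the levels printed here and carries the error of that tie. Inside batch 1, differences between regions had a median standard error of 0.359 over all probes. Without NSB replicate 3, no difference between batch 1 and the other batches could be estimated. A fitted difference of NSB from a region of batch 2 or 3 rests, on the NSB side, on replicate 3 alone.

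Replicate arrays stood apart in places. The correlation between replicates, taken across probes, which are not independent, was 0.994 in RN and 0.921 to 0.995 in NSB, but 0.858 in the E13.5 CNH, 0.859 in the E11.5 P-CNH and 0.877 to 0.914 in CLE. The fewest probes, 10814, were detected on E13.5 CNH replicate 2. The next 3 arrays were 2 of CLE, with 11062 on replicate 1 and 12289 on replicate 2, and replicate 1 of the E11.5 P-CNH, with 12280.

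Of the 13 probes, 11 probes of 7 genes were detected on at least 1 array and were tested. Gli1, whose protein carries the signal on to its targets, was not among them: its only probe (ILMN_2774992) was detected on none of the 36 arrays, at levels of 4.44 to 5.78. A Foxa2 probe (ILMN_1229325) was not detected either. The other genes are given by their brightest probe: Shh by ILMN_2610013, Noto by ILMN_1237300, Foxa1 by ILMN_1237195, Foxa2 by ILMN_1246216, Foxj1 by ILMN_2754453, Ptch1 by ILMN_2460224 and Hhip by ILMN_2684250. Ptch1 was detected on 36 of 36 arrays, Foxa1 on 28, Shh on 26, Foxa2 and Foxj1 on 25 each, Noto on 20 and Hhip on 3. A probe had to be bright somewhere to be tested, so counts among the 7 tested genes describe them and support nothing further. The plot of levels on each array shows all 7.

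**Figure D1:**
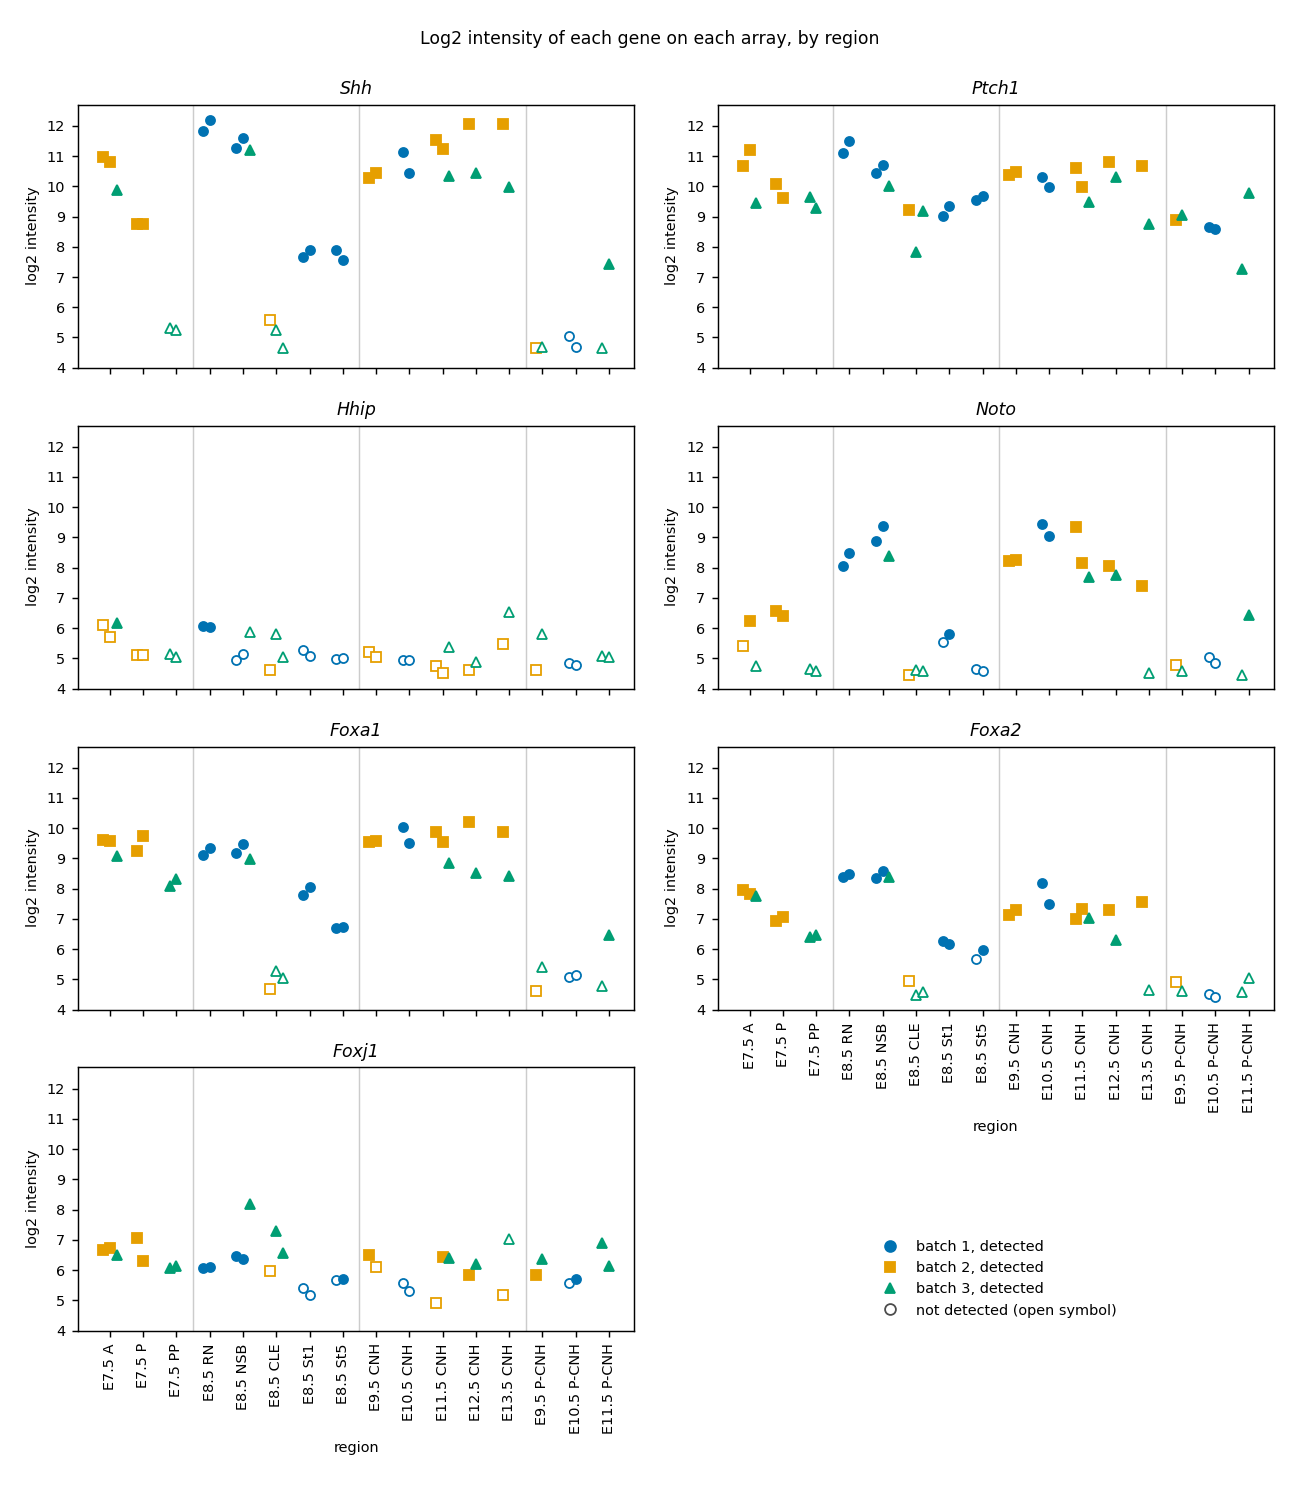
Log2 intensity (vertical axis) of the 7 tested genes on each of 36 arrays, by region (horizontal axis), with shape and colour for the batch and open symbols where the probe was not detected. Shh lay at 11.82 and 12.20 in RN and at 9.99 to 12.08 in the E13.5 CNH, and was undetected in CLE.

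The ligand Shh was bright in the node and, with its brightest probe, in the hinge. Its level was 11.82 and 12.20 on the RN arrays and 11.27, 11.60 and 11.22 on the NSB arrays. In the CNH it was 10.29 and 10.44 at E9.5, 11.13 and 10.43 at E10.5, 11.54, 11.24 and 10.34 at E11.5, 12.07 and 10.45 at E12.5, and 12.08 and 9.99 at E13.5. Both RN arrays lay above every CNH array up to E11.5, whereas at E12.5 and E13.5 the CNH array of batch 2 reached into the range of RN and that of batch 3 lay well below it. In the fit, RN exceeded the CNH by 2.46 (SE 0.91, adjusted p = 0.212) at E9.5, 1.23 (0.245) at E10.5, 1.44 (0.642) at E11.5, 1.05 (0.686) at E12.5 and 1.28 (0.57) at E13.5, the adjusted p in parentheses, and none of these was called. NSB exceeded the CNH by 1.89 (adjusted p = 0.161), 0.66 (0.814), 0.87 (0.615), 0.48 (0.762) and 0.70 (0.618) at the same stages, again uncalled. The second Shh probe (ILMN_2802979) had a mean of 10.56 in RN. Its CNH means were 7.48, 9.12, 7.33, 8.09 and 6.26 from E9.5 to E13.5, undetected at E13.5 on 1 of 2 arrays. The fitted level at E11.5, which allows for batch, was 8.76. With this probe RN exceeded the E13.5 CNH by 2.74 (adjusted p = 0.102) and was called against no stage. A difference that was not called is not shown to be absent, least of all with standard errors of up to 0.91. In a bulk sample, fewer expressing cells and less RNA per cell cannot be told apart.

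Shh was dim in the pieces beside and behind these. In P-CNH it was undetected at E9.5 (4.65 and 4.68) and E10.5 (5.05 and 4.69), and at E11.5 it was undetected on replicate 1 (4.65) but reached 7.44 on replicate 2. The E8.5 levels were 5.57, 5.26 and 4.65 in CLE, all undetected, 7.67 and 7.90 in St1, and 7.88 and 7.58 in St5. At E7.5, Shh was dimmer in more posterior pieces: 10.96, 10.79 and 9.86 in A, 8.76 and 8.74 in P, and an undetected 5.32 and 5.25 in PP. In the order of levels over 16 regions, RN came first and did not overlap NSB. NSB, the 5 CNH stages and E7.5 A then followed with overlapping arrays, and below them, clear of their neighbours, lay P, then St1 and St5, then the regions where the probe was largely undetected. Of the 15 pairs of neighbours in that order, 5 did not overlap.

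Ptch1, the receptor of Shh and itself switched on by the signal, was detected everywhere and spanned less. Its mean level was 11.31 in RN, with the lower array at 11.12, and the levels were 10.44, 10.71 and 10.03 in NSB, and between 8.76 and 10.80 in the CNH. The lowest CNH value was that of E13.5 replicate 2, whose partner stood at 10.68. In P-CNH the levels were 8.90 and 9.05 at E9.5, 8.67 and 8.60 at E10.5, and 7.27 and 9.77 at E11.5, again a wide pair. CLE held 9.21, 7.82 and 9.18, St1 9.03 and 9.33, St5 9.55 and 9.69, and the E7.5 regions 9.29 to 11.20. RN stood first in the order, clear of the E12.5 CNH next to it but not of E7.5 A, and the remaining 15 regions overlapped each with the next, so that 1 of 15 neighbouring pairs was separate. RN exceeded the CNH by 0.64 to 1.48 over the 5 stages and NSB differed from it by -0.08 to 0.75, with no call.

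In the fit to all arrays, the single Ptch1 call was RN above St1, by 2.13 (SE 0.55, adjusted p = 0.0399). Both RN arrays lay above both St1 arrays, and the call was easily lost. It was not called with cyclic loess (2.19), no batch term (2.13) or no filter (2.13). It also went without St1 replicate 1 (1.97) or 2 (2.28) and without RN replicate 1 (2.32) or 2 (1.93). Leaving out NSB replicate 1 or 2, either array of St5, the E10.5 CNH, the E10.5 P-CNH, the E9.5 CNH or E7.5 PP, or A replicate 1 or E11.5 CNH replicate 3, ended the Ptch1 call while the difference was still 2.13. A further Ptch1 probe (ILMN_1248463) was called in no comparison of the fit to all arrays. The fit to batch 1 alone, which holds both regions, called Ptch1 in RN over St1 (2.13, adjusted p = 1.02e-05, limma), against 8.04% of probes. It also called Ptch1 in RN over St5 (1.69), against 16.3%, in NSB over St1 (1.40), against 4.46%, and in NSB over St5 (0.96), against 14%.

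Hhip, which binds Hedgehog ligands at the cell surface and restrains them, was near the floor of the arrays. It was detected on 3 of 36 arrays: RN replicates 1 and 2, at 6.06 and 6.05, and E7.5 A replicate 3, at 6.16. Every CNH array was undetected, although E13.5 replicate 2 read 6.55, above RN, on an array with few detected probes. Where a group was undetected on all arrays, a fold change is printed as a lower bound: a dim array took the intensity of its dimmest detected probe wherever it read less, and of the difference in mean level and the fitted difference, which allows for batch, the smaller was taken. None is given where no bound above 1 was left. Where fits are compared, log2 differences from such a group are printed to identify the fit and are no measure of size. By that measure Hhip was at least 1.36-fold higher in RN than in the E10.5 CNH (adjusted p = 0.00333, limma) and at least 1.27-fold higher than in the E12.5 CNH (adjusted p = 0.00731). The call against the E11.5 CNH (adjusted p = 0.0236) left no such bound. Against the E9.5 (adjusted p = 0.268) and E13.5 CNH there was no call.

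The Hhip calls of RN against the E10.5 CNH, the E11.5 CNH and St5 depended on the treatment of dim probes. RN against the E10.5 CNH was not called with an offset of 100 (0.39), without background correction (0.53) or with no batch term (1.12). RN against the E11.5 CNH went with an offset of 100 (0.52), without background correction (0.74), and without NSB replicate 1 (1.41), RN replicate 1 (1.51) or RN replicate 2 (1.52). RN against the E12.5 CNH was called in all 11 alternatives that could give it, but went without E12.5 CNH replicate 2 (1.48). At E8.5, Hhip was called in RN over St5, at least 1.31-fold (adjusted p = 0.00669), but not with an offset of 100 (0.37), without background correction (0.49), with no batch term (1.05), or without St5 replicate 1 (1.04) or 2 (1.06) or RN replicate 1 (1.05) or 2 (1.06).

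Among the transcription factors, Noto was bright in the node and the hinge and dim elsewhere. Its level was 8.06 and 8.5 in RN and 8.88, 9.38 and 8.38 in NSB. In the CNH it was 8.21 and 8.25 at E9.5, 9.44 and 9.04 at E10.5, 9.34, 8.16 and 7.69 at E11.5, and 8.04 and 7.75 at E12.5. At E13.5 it was 7.41 on replicate 1 and an undetected 4.52 on replicate 2. Up to E11.5 the CNH arrays overlapped those of RN or NSB or lay above RN. Both E12.5 arrays lay below both RN arrays, and the E13.5 arrays lay lower still. Against the CNH, the fitted difference of RN was 0.17, -0.96, -0.29, 0.07 and 2.00 from E9.5 to E13.5, with no call. That of NSB was 1.02, -0.10, 0.56 and 0.92 up to E12.5, uncalled, and 2.86 (SE 0.71, adjusted p = 0.00938) at E13.5, where all 3 NSB arrays lay above both CNH arrays. Without E13.5 CNH replicate 2 that difference was 1.5 (adjusted p = 0.22), and it was not called with cyclic loess (1.73) or in batches 2 and 3 alone (2.86, adjusted p = 0.0556). A second Noto probe (ILMN_1225333) was also called at E13.5 for NSB (at least 1.65-fold), and the third (ILMN_2833082) depended on the batch term. Its mean level was 6.84 in RN against 6.99, 7.65, 6.65, 5.78 and 4.71 in the CNH from E9.5 to E13.5, whereas its fitted differences were all below 0, down to -2.22, and uncalled.

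Outside them, Noto was undetected on all CLE, St5 and E7.5 PP arrays and on 1 of 2 St1 arrays (5.54, against 5.79), and read 6.57 and 6.40 in E7.5 P. E7.5 A read 5.42 and 4.74 undetected and 6.25 detected. In P-CNH only E11.5 replicate 2 was detected, at 6.42. The order of levels placed the E10.5 CNH, NSB, the E11.5 CNH, RN and the E9.5 CNH first with overlap, then the E12.5 CNH, clear of the E9.5 CNH before it but inside the range of the E11.5 CNH, then E7.5 P and all others, with 3 of 15 neighbouring pairs separate.

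Foxa1 was bright in node and hinge at every stage. RN gave 9.12 and 9.34 and NSB 9.17, 9.47 and 8.97. The CNH gave 9.55 and 9.58 at E9.5, 10.04 and 9.53 at E10.5, 9.88, 9.53 and 8.85 at E11.5, 10.21 and 8.52 at E12.5, and 9.86 and 8.43 at E13.5. At E9.5 and E10.5 all CNH arrays lay above all RN and NSB arrays, and from E11.5 on the groups overlapped. The fitted difference from the CNH lay between -0.56 and -0.02 for RN and between -0.46 and 0.07 for NSB, with standard errors of up to 0.80 and no call. P-CNH was undetected on every array but E11.5 replicate 2 (6.47), CLE on every array (4.67, 5.27 and 5.06), and St1 (7.79 and 8.05) and St5 (6.71 and 6.74) lay between. The E7.5 levels were 9.60, 9.58 and 9.08 in A, 9.25 and 9.74 in P, and 8.09 and 8.32 in PP. In the order of levels, 9 regions overlapped at the top, the 5 CNH stages, RN, NSB, A and P. PP, St1 and St5 followed, each clear of the next, and then P-CNH and CLE, with 4 of 15 pairs separate.

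Foxa2 was brighter in node and border than in the hinge. It read 8.39 and 8.47 in RN and 8.35, 8.57 and 8.38 in NSB. In the CNH it read 7.14 and 7.28 at E9.5, 8.19 and 7.49 at E10.5, 7.00, 7.34 and 7.02 at E11.5, 7.30 and 6.29 at E12.5, and 7.55 and an undetected 4.66 at E13.5. All RN and NSB arrays lay above all CNH arrays, and RN and NSB led the order of levels, clear of E7.5 A and the E10.5 CNH. NSB exceeded the CNH by 1.76 (SE 0.51, adjusted p = 0.0401) at E11.5, 1.96 (SE 0.53, adjusted p = 0.0214) at E12.5 and 2.64 (SE 0.53, adjusted p = 0.00155) at E13.5, all called. At E9.5 the difference was 1.91 (adjusted p = 0.0535) and at E10.5 it was 0.62 (adjusted p = 0.665), uncalled. RN exceeded the CNH by 1.88 (adjusted p = 0.228), 0.59 (0.679), 1.73 (0.238), 1.93 (0.139) and, called, 2.61 (SE 0.68, adjusted p = 0.023) at E13.5. Whether the stages differ among themselves was not tested in this comparison.

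The Foxa2 calls were not equally firm. NSB over the E13.5 CNH was called in all 12 alternatives that could give it and with each of 35 arrays left out, although without E13.5 CNH replicate 2 the difference was 1.21 and with cyclic loess 1.46. RN over the E13.5 CNH was lost without that array (1.17), without RN replicate 1 (2.66) or 2 (2.57), without NSB replicate 1 (2.5) or 2 (2.73), with cyclic loess (1.43) and with the replicate block (2.00). NSB over the E12.5 CNH was lost without E12.5 CNH replicate 2 (1.77), with the replicate block (1.34) and in batches 2 and 3 alone (1.96, adjusted p = 0.0998). NSB over the E11.5 CNH was kept with 21 of 35 arrays left out. It was lost without E11.5 CNH replicate 1 (1.60) or 2 (1.75) and without either array of the E12.5 CNH (1.73). It was also lost, at a Foxa2 difference of 1.76, without either array of RN, St1, the E10.5 P-CNH or the E9.5 CNH, without NSB replicate 1 or 2, with no filter and in batches 2 and 3 alone, and with the replicate block (1.49).

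The other Foxa2 levels were 7.97, 7.82 and 7.76 in E7.5 A, 6.93 and 7.07 in P, 6.40 and 6.48 in PP, 6.26 and 6.18 in St1, and 5.68, undetected, and 5.96 in St5. CLE and all 6 P-CNH arrays were undetected, E11.5 replicate 2 included (5.04), although Shh, Noto and Foxa1 were detected on that array. In the order of levels 4 of 15 neighbouring pairs were separate.

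Foxa1 and Foxa2 encode related proteins and had like patterns over the 16 regions. Pearson's r between their fitted region means, which allow for batch, was 0.843, so their promoters are shown. RefSeq promoters of GRCm38.p6, 250 bases before to 50 after the start, were at hand for 5 of the 8 genes, Noto, Foxa1, Foxa2, Ptch1 and Hhip, 7 promoters in all, and not for Shh, Foxj1 and Gli1. On both strands they were searched for the GLI consensus TGGGTGGTC, which 0.253% of 32851 promoters hold, for the same with at most 1 mismatch (6.74%) and for the forkhead core TGTTTAC (3.65%). No promoter of the 7 held the exact GLI consensus. The Foxa1 promoter, on the minus strand at chr12:57546062-57546361, held the forkhead core in its reverse-strand form, 141 bases before the start. A Foxa2 promoter, on the minus strand at chr2:148045415-148045714, held the GLI consensus with 1 mismatch, 66 bases before the start. Capitals mark these matches, which are descriptions of the letters and not binding sites.
Foxa1: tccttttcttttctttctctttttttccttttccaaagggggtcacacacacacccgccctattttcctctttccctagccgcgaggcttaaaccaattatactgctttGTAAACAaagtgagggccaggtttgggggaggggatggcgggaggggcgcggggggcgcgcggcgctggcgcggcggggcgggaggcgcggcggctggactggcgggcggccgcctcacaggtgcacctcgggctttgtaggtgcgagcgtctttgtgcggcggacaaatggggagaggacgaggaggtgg
Foxa2: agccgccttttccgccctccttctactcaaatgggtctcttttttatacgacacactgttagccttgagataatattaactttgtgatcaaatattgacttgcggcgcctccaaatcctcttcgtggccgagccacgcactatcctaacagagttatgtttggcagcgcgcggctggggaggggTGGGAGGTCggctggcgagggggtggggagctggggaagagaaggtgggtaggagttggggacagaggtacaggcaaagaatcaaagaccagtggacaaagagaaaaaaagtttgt

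Foxj1 had no clear order in levels compared across batches. Its level was 6.05 and 6.10 in RN, and 6.47, 6.35 and 8.18 in NSB, where replicate 3, the array of batch 3, stood apart. In the CNH it was detected on 5 of 11 arrays, at 5.84 to 6.49, and the undetected arrays read 4.91 to 7.02. Over the other regions the levels ran from 5.17 in St1 to 7.29 in CLE, and no neighbouring regions in the order of levels were separate. NSB was called above the CNH at E11.5 by 1.82 (SE 0.51, adjusted p = 0.0299), at E12.5 by 1.83 (SE 0.53, adjusted p = 0.0303) and at E13.5, where the CNH was undetected, at least 1.28-fold (adjusted p = 0.0348). RN was called at no stage in the fit to all arrays. These differences of NSB rest, on the NSB side, on replicate 3 alone, the array that stood apart. The groups overlapped at E11.5 and E13.5, where undetected CNH replicate 2 read 7.02 at E13.5, and at E12.5 all NSB arrays lay above both CNH arrays. All 3 Foxj1 calls went with no batch term (1.08, 0.99 and 0.90), with BeadChip as the random block (1.07, 1.13 and 1.05), and in batches 2 and 3 alone (1.82, 1.83 and 1.74). The call at E11.5 also went without E11.5 CNH replicate 1 (1.49) or 3 (1.85), that at E12.5 without E12.5 CNH replicate 2 (1.61) and that at E13.5 without E13.5 CNH replicate 1 (1.16). Nor did Foxj1 levels, compared across batches, separate the midline regions from others. CLE replicates 2 and 3 read 7.29 and 6.55, and E11.5 P-CNH 6.88 and 6.12. Inside batch 1, RN and NSB read 6.05 to 6.47. All arrays of St1, St5, the E10.5 CNH and the E10.5 P-CNH lay below them (5.17 to 5.71). The fit to that batch called RN and NSB over St1 and the E10.5 CNH, and NSB over St5, but not RN over St5 (0.38). Fitted levels, which allow for batch, were highest in NSB (6.41) and RN (6.07), with St5 next (5.69). That order rests on NSB replicate 3, the array that stood apart, since it alone ties batch 1 to the others. CLE, for example, had a mean level of 6.60 but a fitted level of 5.06.

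RN was compared with the CNH of each later stage to ask which of these genes had dropped by then. Of the 35 comparisons of 7 genes at 5 stages, 4 were called, all with RN higher. At E9.5, 0 of 7 genes were called by limma, against 2.6% of all tested probes, and 3 had an unadjusted p under 0.05, against 11.4% of probes. At E10.5 it was 1 of 7, Hhip, against 7.97%. At E11.5 it was again Hhip alone, against 3.51%, and at E12.5 Hhip alone, against 4.21%. At E13.5 Foxa2 alone was called, against 5.22%. The 4 calls became 16 with the ComBat-type adjustment given the regions and 12 without the 4 arrays of fewest detected probes, left out after the values were seen, so the number is not firm. These comparisons share the RN arrays, and all but E10.5 cross between batches.

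For NSB, 7 of 35 comparisons were called, all with NSB higher, on arrays that the 5 comparisons share. Outside E10.5 each difference rests, on the NSB side, on replicate 3 alone, since NSB replicates 1 and 2 share no batch with those stages. The fit to batches 2 and 3 alone gave the same sizes, such as 1.76, 1.96 and 2.64 for Foxa2 from E11.5 to E13.5. At E9.5, limma called 0 of 7 genes against 5.04% of probes, with 3 at an unadjusted p under 0.05 against 16.3%. At E10.5 it called 0 of 7 against 7.14%, with 1 at an unadjusted p under 0.05 against 14.7%. At E11.5 and at E12.5 it called 2 of 7, Foxa2 and Foxj1, against 6.61% and 8.86%, and at E13.5 it called 3 of 7, Noto, Foxa2 and Foxj1, against 10.7%. Between RN and NSB themselves, 0 of 7 were called by limma against 0.134% of probes, with Hhip alone at an unadjusted p under 0.05 against 1.67%. Hhip was the gene with the bound of at least 1.12-fold (adjusted p = 0.157). The count for NSB fell to 4 without E12.5 CNH replicate 2. That for RN fell to 2 without NSB replicate 1, RN replicate 1 or RN replicate 2 and was 8 without E13.5 CNH replicate 1.

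**Figure D2:**
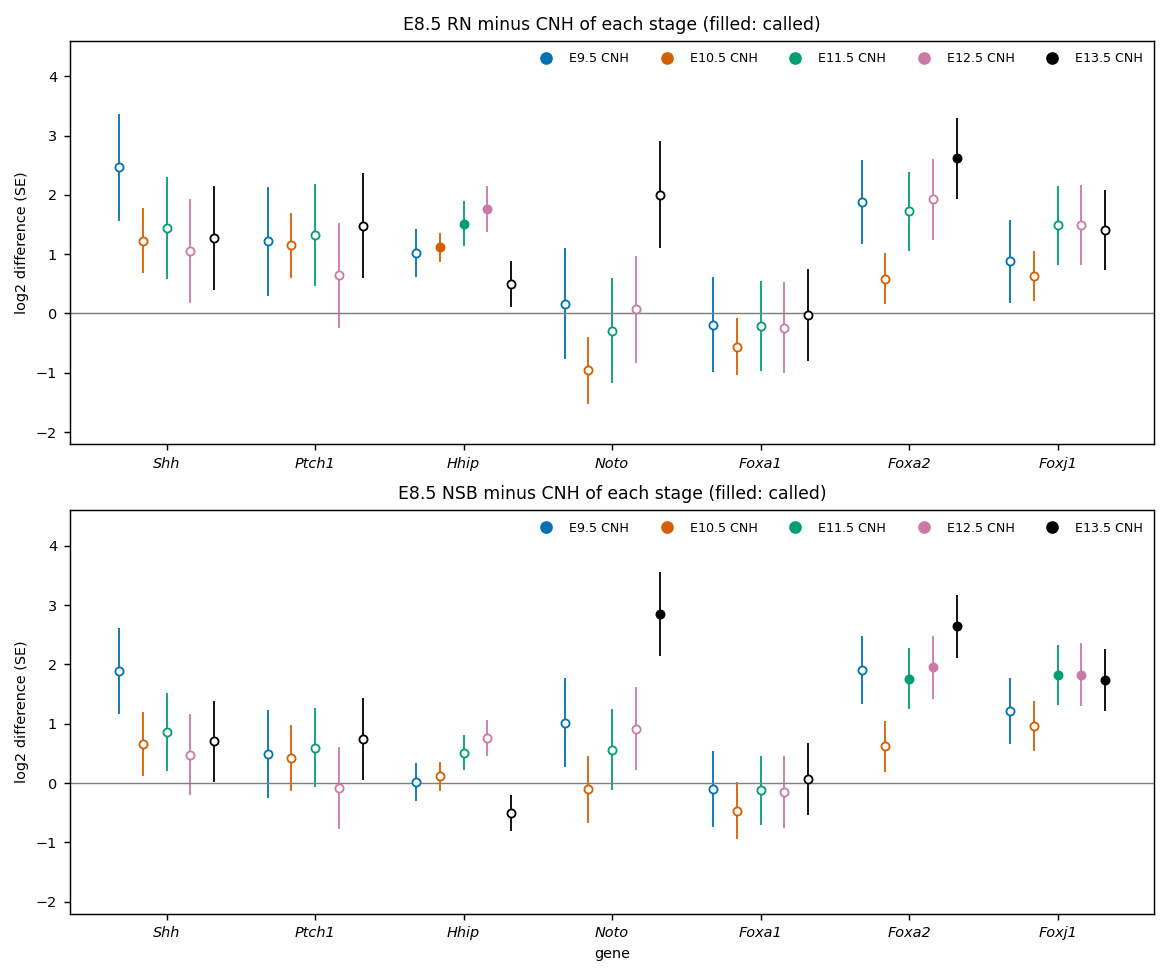
Fitted log2 difference (vertical axis, bars are the standard error) of RN and of NSB from the CNH at each stage, for 7 genes (horizontal axis), filled where called. Foxa1 lies between -0.56 and 0.07, and Foxa2 for NSB is called at 1.76, 1.96 and 2.64.

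The E10.5 CNH was the stage whose arrays shared a batch with RN and with NSB replicates 1 and 2, and a fit to the 12 arrays of batch 1 alone, with 6 residual degrees of freedom, had a smaller median standard error of 0.141. There, RN against the E10.5 CNH gave calls for 6 of 7 genes, but also for 21.1% of all probes. Shh was higher in RN by 1.23 (adjusted p = 0.00213), Ptch1 by 1.15 (0.000364) and Foxa2 by 0.59 (0.0392), the adjusted p in parentheses. Hhip, at least 1.36-fold (adjusted p = 1.61e-05), and Foxj1, at least 1.38-fold (adjusted p = 0.00278), were higher in RN and undetected in that CNH. Noto was lower by -0.96 (0.00391), both CNH arrays lying above both RN arrays. NSB against the E10.5 CNH gave 2 of 7, Foxa2 (0.62) and Foxj1, against 19.7% of probes, and RN against NSB, where it was undetected, gave Hhip alone (adjusted p = 0.000867), against 1.91%. Each BeadChip of batch 1 held 1 array of every region, and with a term for BeadChip, added later, RN against the E10.5 CNH called the same 6 genes, against 21.5% of probes, NSB the same 2, against 20.1%, and RN against NSB also Ptch1 (0.73, adjusted p = 0.0454), against 2.29%. So inside the batch Shh and Ptch1 were higher in RN and Noto was higher in the hinge. The differences are those of the fit to all arrays, since both regions lie in batch 1, and only their errors are new.

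At E8.5, RN and NSB were set against each other and against neighbouring regions. Over 49 comparisons of 7 genes, 23 were called, all higher in RN or NSB. In RN against CLE, 3 of 7 were called, Shh, Foxa1 and Foxa2, against 1.43% of probes. Against St1 it was 4 of 7, Shh, Noto, Foxa2 and Ptch1, against 2.24%, and against St5 it was 5 of 7, Shh, Noto, Foxa1, Foxa2 and Hhip, against 6.05%. In NSB against CLE, 4 of 7 were called, Shh, Noto, Foxa1 and Foxa2, against 2.4%. Against St1 it was 3 of 7, Shh, Noto and Foxa2, against 1.42%, and against St5 all of those and Foxa1, 4 of 7, against 5.21%. Shh exceeded St1 by 4.23 in RN (SE 0.54, adjusted p = 2.49e-05) and St5 by 4.28 (adjusted p = 7.44e-06), and was at least 44.2-fold higher in RN than in CLE (adjusted p = 1.53e-05). In NSB it was at least 28.2-fold higher than in CLE (adjusted p = 3.99e-07). Noto was at least 6.13-fold higher in RN (adjusted p = 9.35e-05) and at least 9.31-fold higher in NSB (adjusted p = 6.36e-06) than in St5. Foxa1 was at least 5.98-fold higher in RN than in CLE (adjusted p = 0.00242) and higher than in St5 by 2.5 (adjusted p = 0.00117), whereas its difference of 1.31 from St1 was not called (adjusted p = 0.324). Foxa2 exceeded St1 by 2.21 in RN (adjusted p = 0.00265) and by 2.24 in NSB (adjusted p = 0.00302). In all of these, no array of RN or NSB overlapped the other region.

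Of the 23 calls, those that ended with an array left out were the calls of Ptch1 and Hhip given above and 2 more. Noto in RN over St1 (2.61, adjusted p = 0.00841) was lost without St1 replicate 1 (2.49), St1 replicate 2 (2.74) or RN replicate 2 (2.39). Foxa2 in NSB over St1 was lost without St1 replicate 2 (2.20) or NSB replicate 2 (2.13). Within batch 1 alone, RN against St1 gave all 7 of 7 genes, against 8.04% of probes, and RN against St5 gave 6 of 7, against 16.3%. NSB against St1 gave 6 of 7, against 4.46%, and NSB against St5 gave 6 of 7, against 14%. Within batches 2 and 3 alone, where NSB is replicate 3, NSB against CLE gave the same number as all arrays, 4 of 7, against 1.43%.

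**Figure D3:**
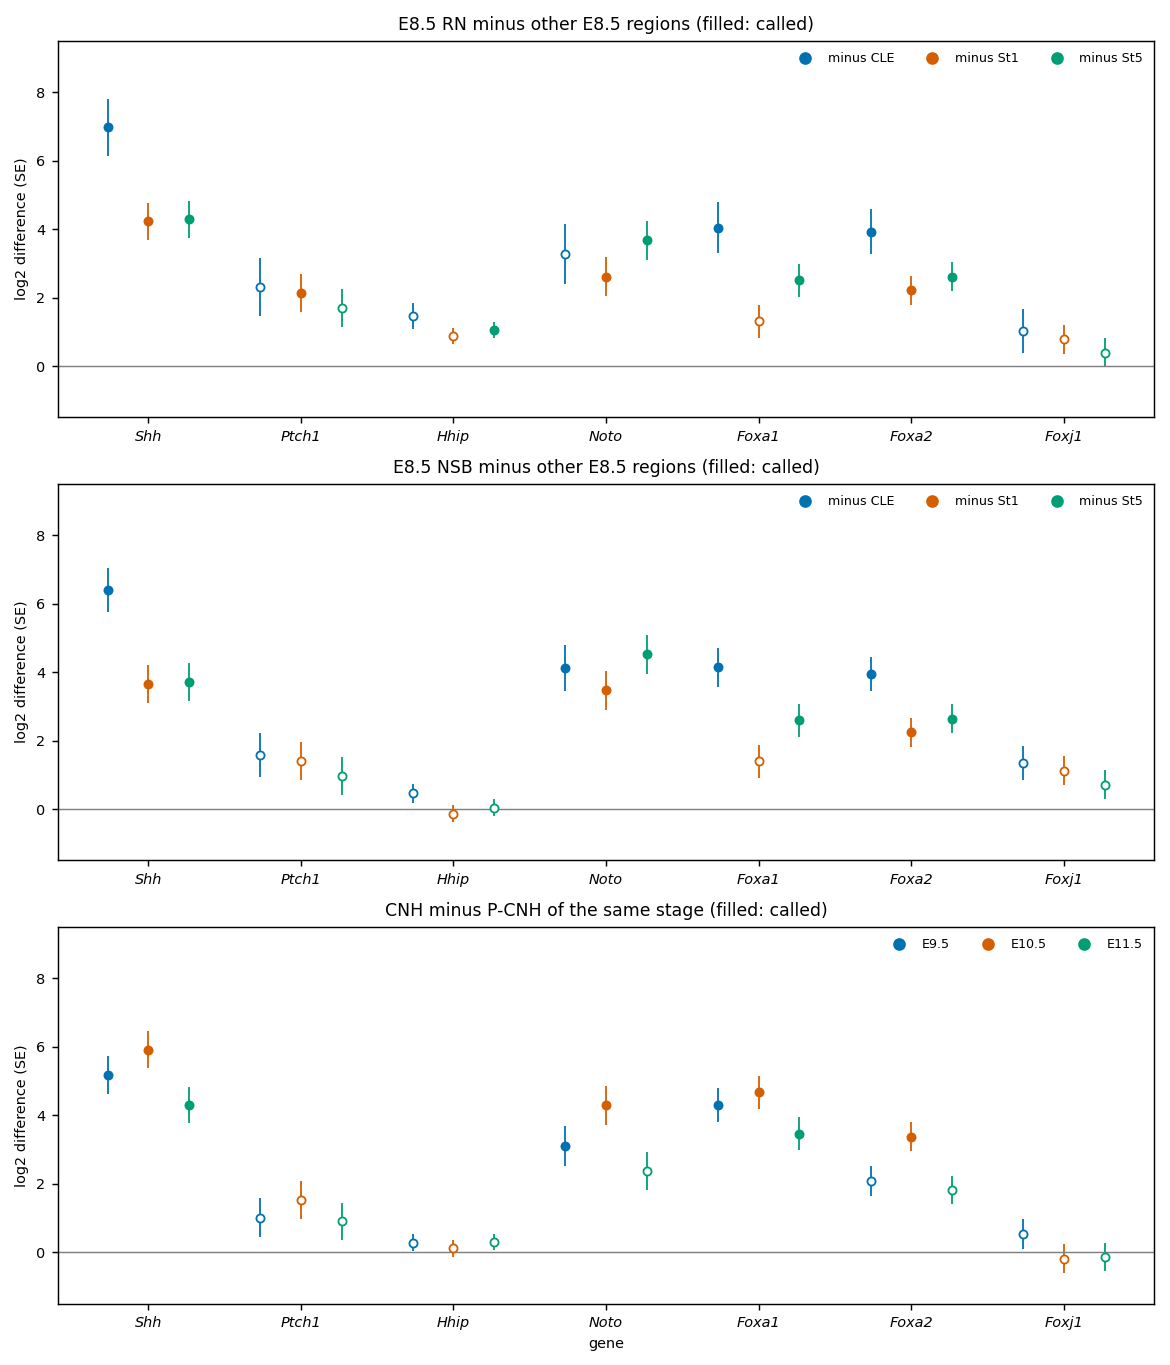
Fitted log2 difference (vertical axis, bars are the standard error) of RN and NSB from other E8.5 regions and of the CNH from the P-CNH of its stage, for 7 genes (horizontal axis), filled where called. Differences from regions where a probe was undetected are not sizes. Shh lies at 4.23 for RN over St1 and at 4.30 for the E11.5 CNH over its P-CNH.

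In the tail bud, the CNH was set against the tissue just posterior to it at 3 stages, and 9 of 21 comparisons were called, all higher in the CNH. At E9.5, 3 of 7 genes were called, Shh, Noto and Foxa1, against 0.17% of probes. At E10.5 it was 4 of 7, these and Foxa2, against 0.318%, and at E11.5 it was 2 of 7, Shh and Foxa1, against 0.161%. Few probes of any kind separated the CNH from the P-CNH, and these genes were among them. Of the gut endoderm genes given below, Sox17 was also called higher in the CNH, at E10.5. Shh was at least 15.1-fold higher in the CNH at E9.5 (adjusted p = 4.24e-05) and at least 34.9-fold at E10.5 (adjusted p = 3.64e-06), and at E11.5, where the P-CNH was detected on 1 of 2 arrays, higher by 4.30 (SE 0.53, adjusted p = 0.000297). Foxa1 was at least 10.1-fold higher at E9.5 (adjusted p = 9.56e-05), at least 17.5-fold at E10.5 (adjusted p = 7.78e-06) and higher by 3.47 at E11.5 (SE 0.47, adjusted p = 0.00104). Noto was at least 3.70-fold higher at E9.5 (adjusted p = 0.0193) and at least 12-fold at E10.5 (adjusted p = 0.000181), and its difference of 2.38 at E11.5 was not called (adjusted p = 0.107). Foxa2 was at least 4.55-fold higher at E10.5 (adjusted p = 0.000108), with at least 1.92-fold at E9.5 (adjusted p = 0.0538) and at least 1.34-fold at E11.5 (adjusted p = 0.099) uncalled. In each called comparison, all CNH arrays lay above all P-CNH arrays. Ptch1 differed by 1.01, 1.52 and 0.91 and was not called.

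The E11.5 P-CNH replicate 2 stood between its partner and the CNH in Shh, Noto and Foxa1, and without replicate 1 the Shh difference at E11.5 was 2.91. Noto at E9.5 was lost without E9.5 CNH replicate 1 (3.12), E9.5 CNH replicate 2 (3.08) or E9.5 P-CNH replicate 1 (2.65), without background correction (1.83), with BeadChip as the random block (3.23) and with the replicate block (3.00). Within batch 1 alone the E10.5 comparison gave 5 of 7 genes, Ptch1 (1.52, adjusted p = 0.000566) being added, against 2.58% of probes. Within batches 2 and 3 alone E9.5 gave 2 of 7, Shh and Foxa1, against 0.0553%, and E11.5 gave 1 of 7, Shh, against 0.0184%. Foxa1 at E11.5 was then at an adjusted p of 0.0502. The second Shh probe, undetected in P-CNH, was called at E10.5 (adjusted p = 0.000366) and not at E9.5 (adjusted p = 0.274) or E11.5 (adjusted p = 0.311).

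Whether the difference between CNH and P-CNH changed with stage was tested as an interaction. Limma called 0 of 7 genes in E10.5 minus E9.5, against 0% of probes, 0 of 7 in E11.5 minus E9.5, against 0.0276%, and 0 of 7 in E11.5 minus E10.5, against 0.00461%. At an unadjusted p under 0.05 there was 1 gene in the comparison of E10.5 with E9.5, Foxa2, against 2.05% of probes, and 0 in that of E11.5 with E9.5, against 5.86%. There were 3 in that of E11.5 with E10.5, Shh, Noto and Foxa2, against 1.49%. The loss of the Noto and Foxa2 calls at E11.5 is therefore not shown to be a change with stage. With the 4 arrays of fewest detected probes left out, a choice made after the values were seen, the Shh difference at E11.5 was called smaller than at E9.5 (adjusted p = 0.0307) and than at E10.5 (adjusted p = 0.0116), with E11.5 P-CNH replicate 2 then alone in its group.

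At E7.5, 3 of 21 comparisons were called. Shh was the only gene of 7 called in A over P, by 2.14 (SE 0.51, adjusted p = 0.0192), against 2.73% of probes, and all A arrays lay above both P arrays. In A over PP, 2 of 7 were called, Shh, at least 18.4-fold (adjusted p = 3.47e-06), and Hhip, at least 1.27-fold (adjusted p = 0.000492), against 6.15%. In P over PP limma called 0 of 7, against 0.792%. Shh there was at least 4.19-fold higher in P (adjusted p = 0.0747). The Shh call of A over P was lost without A replicate 1 (2.09), P replicate 1 (2.15) or P replicate 2 (2.13) and with no batch term (1.79). The Hhip call was lost with an offset of 100 (0.48) and with no batch term (0.90). The count of 3 became 6 without E13.5 CNH replicate 1 or 2. Within batches 2 and 3 alone, A against P gave 0 of 7 by limma, against 1.18%, A against PP gave Shh and Hhip, 2 of 7, against 3.39%, and P against PP gave 0 of 7, against 0.193%.

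The same fit to batches 2 and 3, in which NSB replicate 3 stands alone and is assumed to vary like the other arrays, was run for NSB against the CNH. It called 0 of 7 genes at E9.5, against 2.24% of probes, 0 of 7 at E11.5, against 3.59%, and 0 of 7 at E12.5, against 4.18%. At E13.5 it called 1 of 7, Foxa2 (2.64, adjusted p = 0.0157), against 5.52%.

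Across the fitted means of the 16 regions, which allow for batch, Shh ran with Foxa1 (Pearson's r = 0.859), Ptch1 (0.844), Foxa2 (0.839) and Noto (0.805). This is a description of 16 points that share arrays, batches and the tie through NSB replicate 3. Foxa2 and Ptch1 gave 0.885, and Foxa1 and Ptch1 0.794. For Noto r was 0.742 with Foxa2, 0.720 with Foxa1 and 0.700 with Ptch1. Foxj1 stood apart, with 0.322 for Shh and values from 0.111 to 0.575 with all others, and Hhip, mostly undetected, gave 0.502 with Shh. Among 11775 other probes that spanned at least 1 on the log2 scale, the genes most like Shh were LOC268288 (0.905), Cobl (0.896) and Ppp1r1a (0.892). For Noto they were LOC100046207 (0.895), LOC268288 (0.855) and Lmx1a (0.849), and for Foxa1 Adcy8 (0.959), LOC268288 (0.883) and Cthrc1 (0.844). Foxa2 was most like Cthrc1 (0.908), Sox9 (0.867) and Igfals (0.844), and Ptch1 like Cthrc1 (0.852), Mansc1 (0.794) and Ppp1r1a (0.782). For Foxj1 they were BC024997 (0.909), Syt5 (0.897) and 4930535E21Rik (0.884), and for Hhip Tmem162 (0.857), Clps (0.826) and Napsa (0.822).

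Other genes of the Hedgehog pathway were read as lists. Of 5 genes for release of the ligand 4 were tested. For RN against the CNH their calls were Hhat lower at E10.5 (-1.14, adjusted p = 0.046), and for NSB Ihh higher at E13.5, although undetected in both regions. Of 6 genes for reception 5 were tested. Smo, the most abundant, which passes the signal inwards, differed between RN and the CNH by 0.04 to 0.61 and was not called. The co-receptor Lrp2 was called higher in RN (at least 2.48-fold, adjusted p = 0.0124) and NSB (adjusted p = 0.00691) than in the E13.5 CNH, where it was undetected, but lower in NSB than in the E9.5 CNH (-2.83). Of 10 genes for transduction 8 were tested. The kinase gene Stk36 was higher in RN (2.21, adjusted p = 0.00477) and NSB (2.43, adjusted p = 0.0021) than in the E10.5 CNH, and Gli2 in RN (1.07, adjusted p = 0.00171). At the other 4 stages none of the 8 was called. Over these stages the medians of the transduction list were 0.29, 0.42, 0.20, 0.39 and 0.05 for RN, against medians of all probes between -0.07 and 0.03. Apart from Nkx6-1, the genes given from these 4 lists were chosen after their values were seen.

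Of 8 response genes 6 were tested, and Nkx6-1, a homeobox gene that Hedgehog turns on in the ventral neural tube, was among them. It read 7.18 and 7.92 in RN and 6.52 to 6.78 in NSB and was undetected on every CNH array. In RN it was at least 3.83-fold higher than in the CNH at E10.5 (adjusted p = 6.11e-06), at least 2.49-fold at E11.5 (adjusted p = 0.00607), at least 3.11-fold at E12.5 (adjusted p = 0.00618) and at least 1.57-fold at E13.5 (adjusted p = 0.0127). At E9.5 it was not called (adjusted p = 0.059). NSB was called at the same 4 stages, by at least 2.01-fold at E10.5 (adjusted p = 0.00072). The Nkx6-1 calls for RN were lost without RN replicate 1 at E11.5 (2.27) and E13.5 (2.05) and without NSB replicate 1 at E13.5 (2.29). Those for NSB were lost without E12.5 CNH replicate 2 (1.54), E13.5 CNH replicate 1 (1.43) or E13.5 CNH replicate 2 (1.66). The further response genes called were Foxc2 higher in RN and Bcl2 lower in RN and NSB at E10.5, Bcl2 lower in NSB at E12.5 and Ccnd1 higher in both at E13.5.

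A list of 16 other genes of node and notochord, all tested, held genes that were called against the hinge at every stage and others that were called at none. RN was higher in 8, 8, 7, 7 and 6 of 16 from E9.5 to E13.5 and lower in 0, with medians of 2.21, 1.66, 1.28, 1.42 and 1.35, against medians of all probes between -0.07 and 0.03. NSB was higher in 8, 7, 7, 7 and 6, and Col2a1 alone was lower, at E10.5, E11.5 and E13.5. Of all probes, 2.6%, 7.97%, 3.51%, 4.21% and 5.22% were called either way for RN. For NSB the shares were 5.04%, 7.14%, 6.61%, 8.86% and 10.7%. Nodal, Dand5, Gdf1, Foxd4 and Lhx1 were called at all 5 stages in RN and in NSB, and Krt8 and Krt18 from E9.5 to E12.5. Dand5 was detected on only 5 arrays, and detection somewhere was needed for a test, so its calls describe it and support nothing further. The forkhead gene Foxd4 read 11.57 and 11.58 in RN and 10.77 to 10.90 in NSB, and was undetected on every CNH array. It was at least 62.4-fold higher in RN than in the E10.5 CNH (adjusted p = 4.42e-13), and at least 27.0-fold higher than in the E13.5 CNH (adjusted p = 1.64e-08). The ligand gene Nodal read 10.70 and 10.80 in RN and 10.60 to 11.06 in NSB, against 5.91 and 5.93 in the E10.5 CNH (4.83, adjusted p = 5.06e-12), and was undetected in the CNH from E11.5. Lhx1 was at least 8.99-fold higher in RN than in the E10.5 CNH (adjusted p = 1.39e-11). These calls of Foxd4, Nodal and Lhx1 held with each array left out that allowed a fit. The notochord genes T and Chrd were not among them. T differed between RN and the CNH by -1.46 to -0.16 and Chrd by 0.29 to 2.16, and neither was called for RN or NSB at any stage. Against the P-CNH, Sox9 alone of the 16 was called, higher in the CNH at E9.5 (1.59, adjusted p = 0.0236) and E10.5 (1.72, adjusted p = 0.00513).

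**Figure D4:**
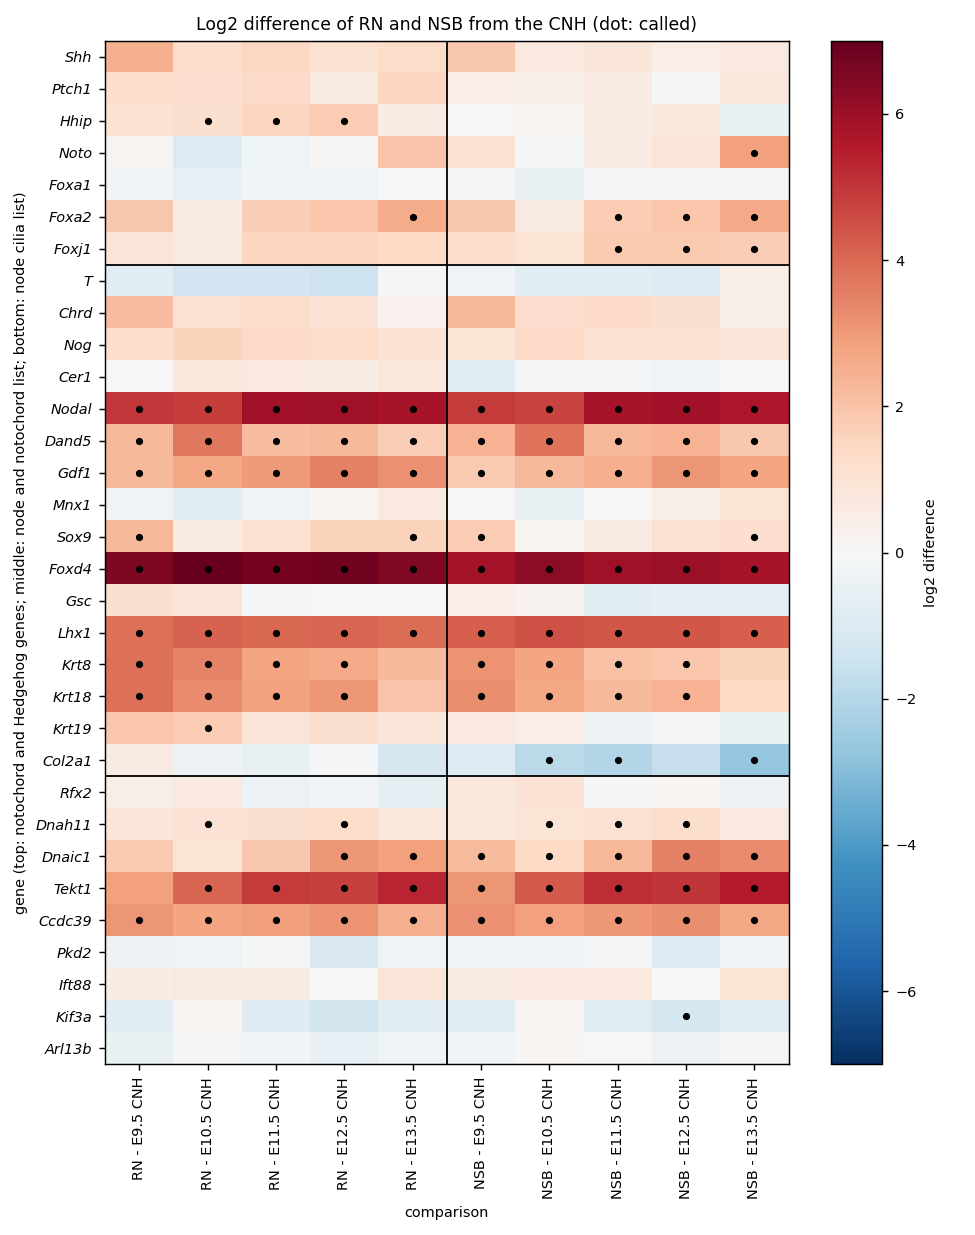
Fitted log2 difference (colour) of RN and NSB from the CNH at each stage (columns) for the 7 genes and for named genes of node, notochord and node cilia. Differences from regions where a probe was undetected, as for Foxd4, are not sizes. T differs by -1.46 to -0.16 in RN.

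Genes of the node's cilia, among them genes of motile cilia, were read as a further list. Of 15 symbols on the list, 2 of which name the same gene, 9 were tested. RN was higher in 1, 3, 2, 4 and 3 of them from E9.5 to E13.5. NSB was higher in 3, 4, 4, 4 and 3, with Kif3a lower in NSB at E12.5. Of all probes, 2.6%, 7.97%, 3.51%, 4.21% and 5.22% were called either way for RN. For NSB the shares were 5.04%, 7.14%, 6.61%, 8.86% and 10.7%. Tekt1, a protein of the ciliary axoneme, read 10.09 and 10.20 in RN and 10.30 to 10.47 in NSB, and 7.08 and 7.17 in the E9.5 CNH, 6.04 and 6.13 at E10.5, and was undetected from E11.5. RN exceeded the CNH in Tekt1 by 2.88 (adjusted p = 0.0632, uncalled) at E9.5 and 4.06 (adjusted p = 2.79e-06) at E10.5, and was at least 16.7-fold (adjusted p = 0.000209), 21.3-fold (adjusted p = 0.000369) and 10.4-fold higher (adjusted p = 0.000101) from E11.5 to E13.5. NSB was called at all 5 stages. Ccdc39 was undetected on every CNH array and at least 3.75-fold higher in RN at E10.5 (adjusted p = 1.86e-07). It was called at all 5 stages for RN and NSB. It was detected on only 5 arrays, and detection somewhere was needed for a test, so its calls describe it and support nothing further. Dnaic1 was called in NSB at all 5 stages, that at E10.5 (1.37) being lost without either E10.5 CNH array (1.30 and 1.44) or NSB replicate 1 (1.25) or 2 (1.49), and Dnah11 was called in NSB from E10.5 to E12.5. No cilia gene was called between CNH and P-CNH at E9.5, E10.5 or E11.5.

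Since Foxa1 and Foxa2 are also genes of the gut endoderm, and Shh of the floor plate, markers of other tissues were read in the same pieces, given as the sum of intensities over the tested genes of a list. Of 8 gut endoderm genes 7 were tested, and RN was higher than the CNH in 4, 5, 4, 3 and 3 of them and NSB in 5, 4, 5, 4 and 4, among them Spink3 and Sox17 at all stages. Their sum was 11508 to 11668 in RN, 10944 to 12548 in NSB and 897 to 917, 2199 to 2221, 1867 to 2273, 3011 to 3113 and 4130 to 5532 in the CNH from E9.5 to E13.5, Cldn6 being the most abundant. Spink3 was undetected on every CNH array. The sum of the list was 11999 to 13290 in St5. In CLE, from which endoderm had been stripped, it was still 2812 to 4182, Cdh1 or Cldn6 being the most abundant there. The P-CNH sums were 562 to 1070 at E9.5, 1117 to 1441 at E10.5 and 3881 to 5088 at E11.5. All 7 visceral endoderm genes were tested, with sums of 1981 to 2675 in RN (Ttr most abundant), 702 to 1340 in NSB and 213 to 511 in the CNH. RN was higher in 1, 4, 2, 2 and 2 and NSB in 0, 2, 2, 2 and 1, and none of the 7 was detected in the E9.5 CNH. Beside the counts of these endoderm lists, 2.6%, 7.97%, 3.51%, 4.21% and 5.22% of all probes were called either way for RN. For NSB the shares were 5.04%, 7.14%, 6.61%, 8.86% and 10.7%. Of 7 floor plate genes 2 were tested, Lmx1b and Nkx2-9, which summed to 68.8 to 73.9 in RN and 47.6 to 105 in the CNH, near the floor. Nkx2-9 was called in RN and NSB from E11.5 to E13.5 although undetected in RN and in the CNH, and the defining gene Ntn1 had no probe. The part of these tissues in the results was not tested.

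Of 6 paraxial mesoderm genes 4 were tested, with sums of 1704 to 2817 in RN, 3190 to 4127 in NSB and 2656 to 5353 in the CNH, mostly of Tbx6, which was lower in RN from E10.5 to E13.5. Meox1 was higher in RN and NSB at E9.5, Tcf15 higher in RN at E13.5 and lower in NSB at E10.5. Of 6 neural genes 4 were tested, with sums of 2185 to 2902 in RN, 1719 to 2604 in NSB and 310 to 1525 in the CNH, mostly of Nkx1-2. Olig3 was higher in RN at all 5 stages and Nkx1-2 in NSB from E10.5 to E13.5. All 5 surface ectoderm genes were tested. They summed to 344 to 508 in RN, 583 to 1079 in NSB, 530 to 756 in St5, 296 to 320 in the E9.5 CNH and 4211 to 4261 in the E13.5 CNH, where Krt14 was the most abundant. Cldn4 was higher in NSB at E9.5, Trp63 was lower in RN at E12.5 and E13.5 and in NSB from E11.5, and Krt14 was lower in RN at E13.5 and in NSB at E12.5 and E13.5. All 6 blood genes were tested, with sums of 4499 to 9101 in RN, 1181 to 3939 in NSB and 6300 to 61628 in the CNH, and Hbb-y was lower in RN and NSB at all 5 stages. The blood sums of the CNH were 37271 to 37803 at E9.5, 29348 to 31107 at E10.5 and 6300 to 46074.5 at E11.5. Those of the P-CNH were 4144 to 7499, 21131 to 24666 and 10937 to 36957, and no blood gene was called between them. The part of these tissues in the results was not tested either.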

How the data were processed

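RNA of microdissected regions was measured on 36 arrays. The authors deposited the mean bead intensity of 45281 probes per array, on a linear scale with background and with no normalisation between arrays, and beside it the p-value of detection, which sets a probe against negative-control beads. The deposited intensity was turned into log2 values by the neqc function (limma 3.58.1, R 4.3.3; normexp correction with an offset of 16, controls inferred from the detection p-value, quantile normalisation). Of the probes, 21712 were detected at a p-value under 0.01 on at least 1 array and tested, and 23569 were left out.

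A single limma model held terms for 16 regions and 3 batches, with 18 residual degrees of freedom. Adjusted p is Benjamini-Hochberg over the tested probes within each of 26 contrasts, two-sided. A gene was represented by its probe with the highest mean. Named were the 8 genes and, from other lists, T and Chrd. Up to 6 genes per list were named where called in the same direction at 3 or more stages between RN or NSB and the CNH. Calls in the same direction at 2 or more stages between CNH and P-CNH also sufficed. For each tested gene, the 3 with the highest Pearson's r over the fitted region means were named too. Other genes of the lists that the results name were picked after their values were seen. The genes and the lists were chosen with earlier results of these data known.

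The lists, from general knowledge and in part from an earlier treatment of these data, were ligand release (Ihh, Dhh, Hhat, Disp1, Scube2), reception (Smo, Cdon, Boc, Gas1, Lrp2), transduction (Gli2, Gli3, Sufu, Kif7, Stk36, Spop, Gpr161, Evc, Evc2, Ulk3), response (Nkx2-2, Nkx6-1, Foxf1, Foxc2, Pax9, Pax1, Bcl2, Ccnd1), node and notochord, node cilia, floor plate, gut endoderm, visceral endoderm, paraxial mesoderm, neural, surface ectoderm and blood. Genes without a kept probe were left out of the tests, and 1 further gene of the lists is not reported here.

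The following were tried instead: an offset of 100, no background correction, cyclic loess, no batch term, an adjustment of the ComBat type without and with the regions as covariates, a random block for BeadChip replacing batch (consensus correlation 0.483), a replicate block, a stricter filter asking for detection on all arrays of some region (18570 probes), no filter, no fold minimum, batch 1 alone, batches 2 and 3 alone, and each array left out in turn. Leaving out 4 arrays together, and a BeadChip term in batch 1 alone, were added after the values were seen. The variance stabilisation and spline normalisation of the study were not run, for want of the lumi package and of bead errors. Proteins were not compared. Figures were drawn with matplotlib 3.10.9 and NumPy 2.4.6 in Python 3.11.15.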

Additional observations from a re-analysis of the deposited data

How the results depend on the processing

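Among 35 comparisons of RN with the CNH, the 4 calls became 2 without background correction, 16 with the ComBat-type adjustment given the regions, 7 without covariates and 7 with a random block for BeadChip. Without the 4 arrays of fewest detected probes, chosen after the values were seen, they became 12. The 7 calls of NSB against the CNH became 4 with no batch term, 11 with the ComBat-type adjustment given the regions and 11 without those 4 arrays. The 3 calls at E7.5 became 5 with cyclic loess and 7 without those 4 arrays, and the 0 interactions became 2, both lower at the later stage. The cause was not tested. The 23 calls among E8.5 regions ranged from 23 to 32 and the 9 of CNH against P-CNH from 8 to 12. With the replicate block the 6 counts were 3, 6, 25, 8, 3 and 0.

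With 1 array left out, the counts ran from 2 to 8 for RN against the CNH, 4 to 9 for NSB, 20 to 26 at E8.5, 8 to 13 for CNH against P-CNH, 2 to 6 at E7.5 and 0 to 0 for interactions. NSB replicate 3 could not be left out of the first 3. A group left with 1 array is assumed to vary like the others.

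For single genes, 2135 values under the other settings comprised 1990 on the same side of the threshold, 38 calls lost and 107 gained, and 6482 with an array left out comprised 6362, 62 and 58. Added values numbered 238, with 1 call lost and 50 gained. Member genes kept their direction in every called comparison. The only called values to change sign were those of Nkx2-9, undetected in RN, against the E11.5 CNH (-0.0675) and the E13.5 CNH (-0.43) with no batch term. The fits to single batches gave complete counts at E7.5 alone, which was 2. With no filter Gli1 was tested and not called.

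In batch 1 the replicate number is also the BeadChip, and calls there with a BeadChip term were added. Over 48 pairs of arrays with the same number, residuals correlated from -0.582 to 0.391 (median 0.071). The comparisons of RN with the CNH outside E10.5 rest on NSB replicate 3 for their batch term. Those of NSB with the CNH outside E10.5, and with CLE, rest on that array alone on the NSB side. Most regions have 2 arrays, and E13.5 CNH replicate 2, with the fewest detected probes, read Hhip and Foxj1 high without detecting them. Both genes lie near the detection limit, and signal over background limits them.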
